A study of Drosophila melanogaster with 12 samples.

Results

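Aminoacyl-tRNA synthetases are the enzymes that join each amino acid to its own tRNA, the step that makes the genetic code readable by the ribosome. Animal cells keep one set for translation in the cytosol and another for translation in mitochondria, both encoded in the nucleus, and the enzymes fall into classes I and II by the fold of their catalytic domain. Growing tissues such as the larval wing disc need both sets. The genes described here were chosen by symbol: a 3-letter amino acid code, or 2 such codes, followed by RS, with -m added for the mitochondrial form. This rule found 33 genes among the 17753 in the count table, 18 cytosolic and 15 mitochondrial, and all 33 passed the filter on low counts that left 10617 genes for testing. The cytosolic phenylalanine enzyme is absent from the 33 because its subunits carry the symbols alpha-PheRS and beta-PheRS, which are described below with the other genes of the pathway.

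RNA was sequenced from cells sorted from wing discs of Drosophila larvae in which 30A-GAL4, a driver active in the hinge of the disc, switched on the dual-color reporter G-trace; the larvae came from 30A>G-trace/SM5 females crossed to w1118 males. POS cells were RFP+GFP+ and stood for the hinge, and NEG cells were RFP-GFP- and stood for the rest of the disc, including pouch and notum. Each was collected without irradiation (-IR, at 24 h after mock irradiation) and at 24 h (IR+24h) and 48 h (IR+48h) after 4000 R of X-rays, with 2 libraries in each of 6 groups. Each library pooled discs from several crosses, dissections and sorting runs, and all groups carried the same driver and reporter. POS is defined by where this driver is active. The study maps the driver to an intron of ds, which is among the hinge markers summed below. The ds marker is therefore not independent of the sort. No -IR library was collected at 48 h, and IR+48h discs included larvae irradiated either 3 or 4 days after egg collection ended. At 48 h the effect of irradiation and that of larval age therefore cannot be told apart.

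Total counts ran from 4211088 to 19940040 per library, with a median of 14939250. NEG -IR replicate 1 was the shallowest and the next lowest library held 11560273. The hinge markers zfh2, Sox15, upd1 and ds summed to 4613 to 6918 CPM in POS -IR and to 921 to 1121 CPM in NEG -IR (CPM, counts scaled to a common library total with TMM factors). The genes of muscle precursors, which lie under the notum, summed to 553 to 1535 CPM in NEG -IR and 63.3 to 111 CPM in POS -IR, and 4 hemocyte genes to 41.4 to 85.9 and 9.31 to 13.7 CPM. None of these marker genes was at 0 in both libraries of a -IR group. In sorted bulk samples, fewer cells of a type and less RNA per cell cannot be told apart.

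All 33 synthetase genes were transcribed in both populations, with a wide gap between the cytosolic and the mitochondrial set. Per kb of exon and averaged over the 12 libraries, the cytosolic genes had a median of 64.5 CPM per kb and the mitochondrial genes a median of 4.73 CPM per kb. The lowest cytosolic mean, 26.8 CPM per kb for MetRS, which charges the tRNA for methionine, was above the highest mitochondrial mean, 25.3 CPM per kb for AspRS-m. The gap between these neighbours was smaller than their spread, since MetRS ran from 16.8 to 37.8 CPM per kb and AspRS-m from 16.7 to 31.4 CPM per kb over the libraries. AspRS-m stood apart from its own set, whose next highest mean was 9.09 CPM per kb for AlaRS-m, and the lowest was 1.71 CPM per kb for ValRS-m.

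**Figure D1:**
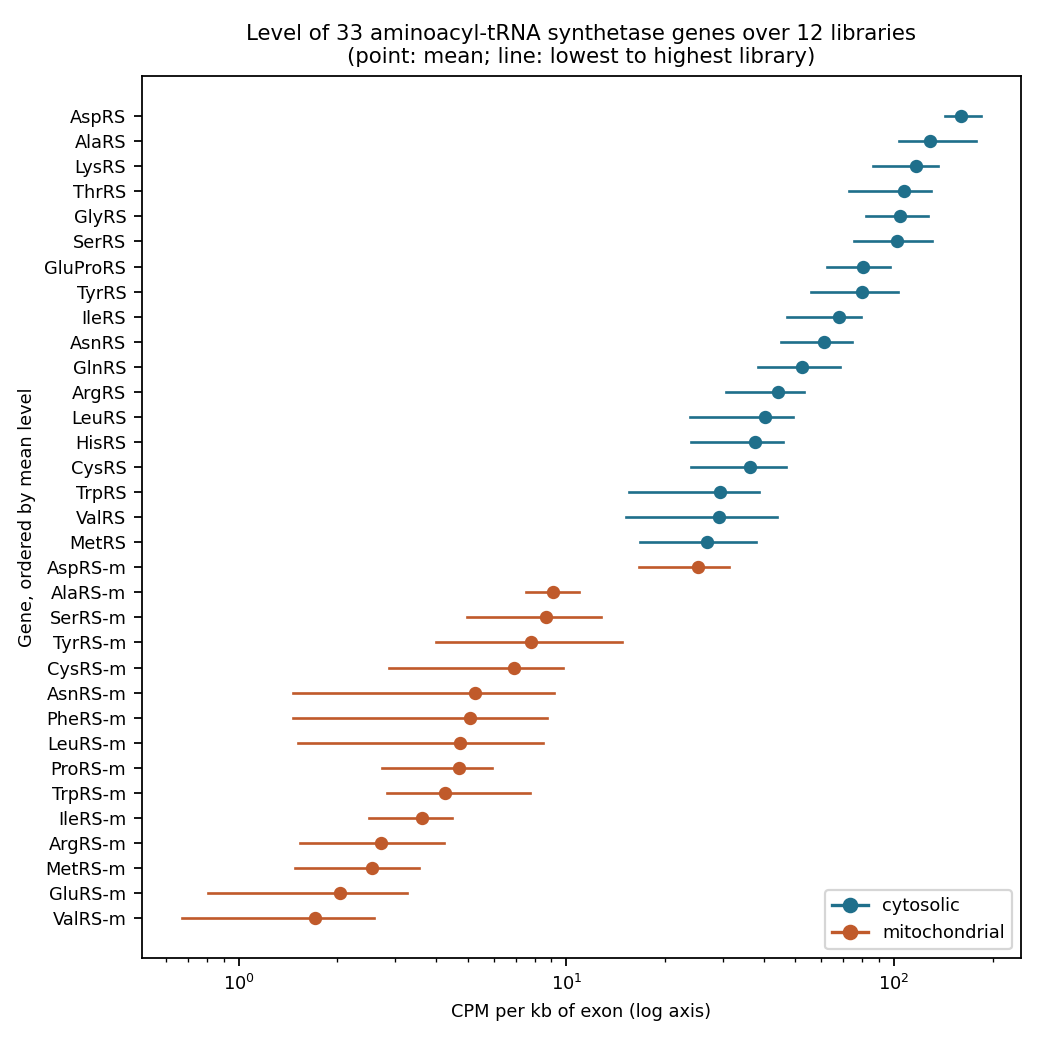
Level of each of the 33 genes in CPM per kb of exon on a log axis; points are means over 12 libraries and lines run from the lowest to the highest library. The cytosolic means lie between 26.8 and 160 CPM per kb, and the mitochondrial means between 1.71 and 25.3 CPM per kb.

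AspRS had the highest mean, 160 CPM per kb, followed by AlaRS at 129, LysRS at 117, ThrRS at 107, GlyRS at 104 and SerRS at 102 CPM per kb. The ranges of AlaRS, LysRS, ThrRS, GlyRS and SerRS overlapped, so their order is not fixed by these libraries. The level of AspRS is uncertain for another reason: 69.5% of its exonic bases also lie under genes on the opposite strand (Nmda1 and antisense RNAs), and no source says whether reads were counted by strand. The same limit applies over fewer exonic bases to GluProRS (16.6%), CysRS-m (14.3%), SerRS-m (13.95%) and ArgRS-m (11.8%). GluProRS, a single protein that charges the tRNAs for glutamate and proline, averaged 80.3 CPM per kb. For 12 amino acids both the cytosolic and the mitochondrial gene were in the table, and the cytosolic gene was higher in every one, by a median of 11.1-fold and a range of 5.24-fold for cysteine to 18.7-fold for isoleucine.

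The lower level of the mitochondrial genes came with a larger spread between replicates. In POS -IR the median absolute log2 ratio between the libraries was 0.09 for the cytosolic genes and 0.47 for the mitochondrial genes, and in NEG -IR it was 0.16 and 0.68. This spread had a direction in the -IR groups: 12 of 15 mitochondrial genes in NEG -IR and 13 of 15 in POS -IR were higher in replicate 1. Cytosolic genes also shifted together between replicates. Replicate 1 was the higher one for 1 of the 18 at NEG -IR, 1 at POS IR+24h, 17 at NEG IR+48h and 16 at POS IR+48h. The split was more even elsewhere: NEG IR+24h had 11, while POS -IR had 10. Genes that shift together are not independent cases in the tallies of direction and non-overlap below. The widest spread between replicates was that of AsnRS-m in POS -IR, at 8.41 and 2.17 CPM. The lowest count of any of the 33 genes in any library was 12. The tests below therefore have less power for the mitochondrial set.

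Without irradiation, the cytosolic synthetase genes were mostly lower in POS cells than in NEG cells. The fitted log2 fold change was below 0 for 16 of the 18 cytosolic genes, with a median of -0.32, and for 10 of the 15 mitochondrial genes, with a median of -0.15, while the median over all 10617 genes was 0.01. AsnRS and HisRS, the enzymes for asparagine and histidine, passed the test; in edgeR, 1.76% of all genes passed as lower in POS -IR. For 18 of the 33 genes both POS libraries lay below both NEG libraries, where 17.1% of all genes did so, and for 1 gene, AlaRS, both lay above, where 17% of all genes did so.

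AsnRS (chromosome 2L, 19129469 to 19131954, minus strand) stood at 173 and 177 CPM in the NEG -IR libraries, against 110.4 and 108 CPM in the POS -IR libraries. Both populations were tight and the groups were well apart, with a log2 fold change of -0.68 (SE 0.15, edgeR adjusted p = 0.0372). HisRS (chromosome X, 18515428 to 18520445, plus strand) was at 97.8 and 127 CPM in NEG -IR against 71.7 and 68.7 CPM in POS -IR, a log2 fold change of -0.69 (SE 0.16, edgeR adjusted p = 0.0460). The NEG libraries differed more from each other than the POS libraries, and the groups did not overlap. On the same strand, 8.91% of the exonic bases of HisRS overlap Bx.

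Other genes had values in the same direction without passing. ThrRS, the enzyme for threonine, was at 307 and 368 CPM in NEG -IR against 246 and 211 CPM in POS -IR (log2 fold change -0.56, edgeR adjusted p = 0.0753). The widest fitted values belonged to mitochondrial genes and had large errors. AsnRS-m was lowest at -0.99 (SE 0.55), with 13.6 and 7.70 CPM in NEG -IR against 8.41 and 2.17 CPM in POS -IR, so that its groups overlapped. ArgRS-m was highest at 0.70 (SE 0.47), with 6.05 and 4.21 CPM in NEG -IR against 11.6 and 4.78 CPM in POS -IR, also overlapping.

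The number of synthetase genes that passed in -IR changed with the fit. With POS and NEG libraries of the same number and time point taken as pairs, 8 genes were lower in POS -IR and 0 higher, where 6.73% of all genes were lower and 5.04% higher in that edgeR fit. The labels do not give this pairing, which was taken from these same data by a limit that cannot establish it. These 8 were AsnRS, HisRS, ThrRS, LeuRS, TyrRS, ArgRS, AsnRS-m and LeuRS-m, with adjusted p from 0.00345 to 0.0460. Without the pairing, the count was 0 when NEG -IR replicate 2, POS -IR replicate 2 or any 1 of the 8 irradiated libraries was left out. It was 2 without NEG -IR replicate 1 (HisRS and ThrRS), and 3 without POS -IR replicate 1 (ThrRS, AsnRS-m and PheRS-m). Scaling by library size alone moved the median of all genes to 0.12 and that of the 33 genes to -0.19, with 0 genes past the test. The muscle precursor and hemocyte markers given above were also lower in POS -IR, and their part in the result was not tested.

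**Figure D2:**
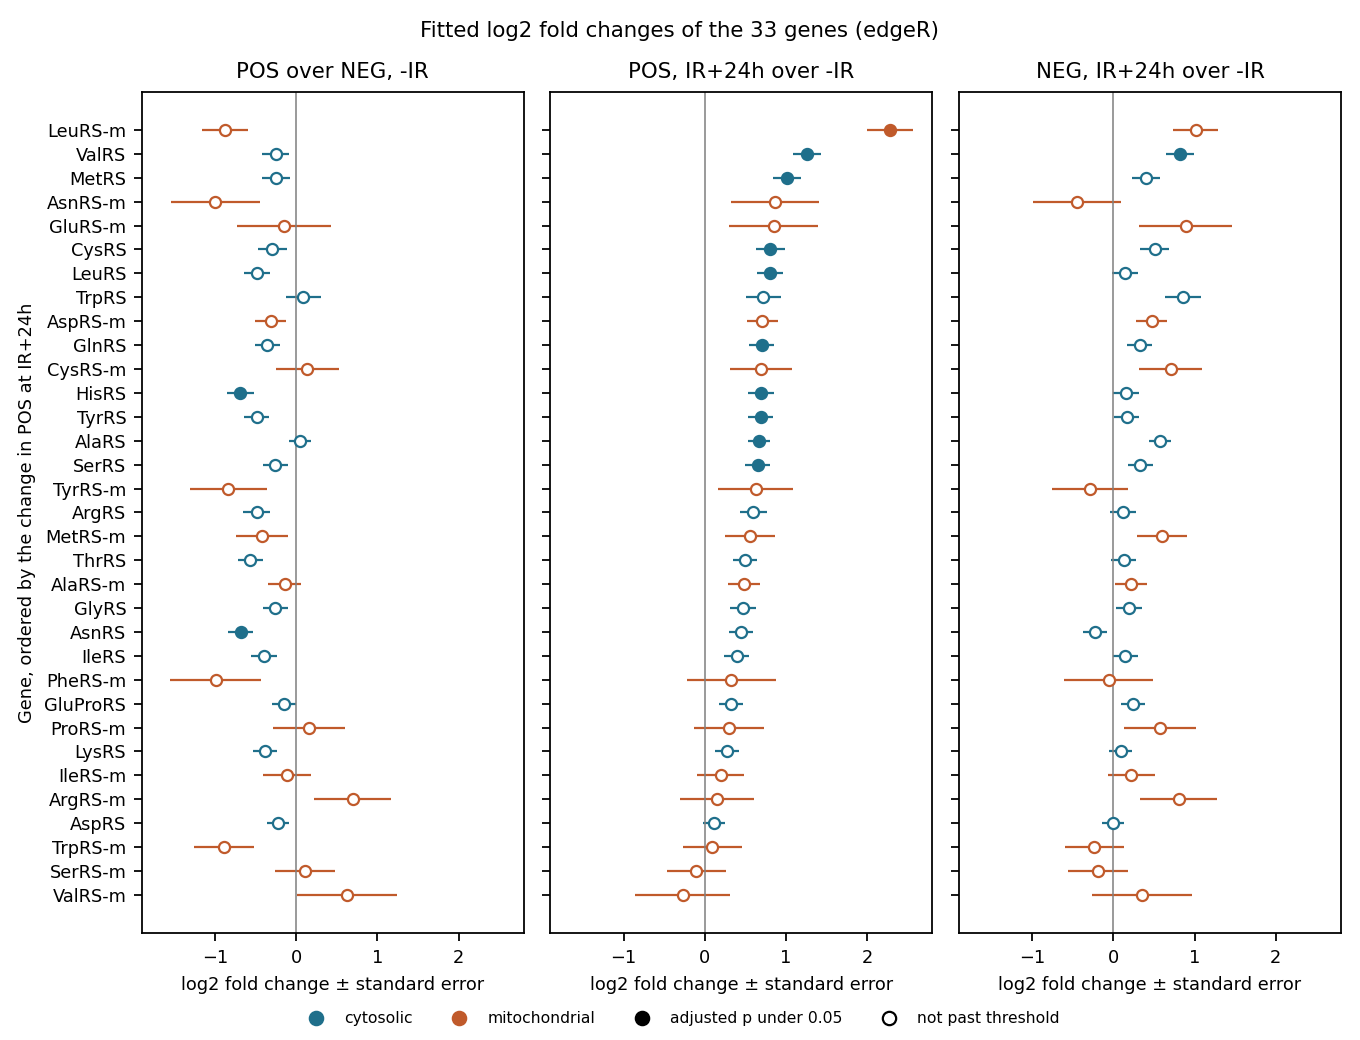
Fitted log2 fold change with its standard error for each of the 33 genes in 3 comparisons: POS over NEG without irradiation, and IR+24h over -IR in POS and in NEG. Filled points have an adjusted p under 0.05 in edgeR: 2 below 0 in the left panel, 10 above 0 in the middle panel and 1 above 0 in the right panel.

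The clearest change was in POS cells 24 h after irradiation, when 10 synthetase genes rose over -IR and 0 fell. In edgeR, 4.14% of all genes rose in this comparison and 1.19% fell. Of the 10, 9 were cytosolic (ValRS, MetRS, LeuRS, CysRS, GlnRS, HisRS, TyrRS, AlaRS and SerRS) and 1 was mitochondrial (LeuRS-m), and their fitted increases ran from 1.57-fold for SerRS to 4.85-fold for LeuRS-m. All 18 cytosolic genes and 13 of the 15 mitochondrial genes had a log2 fold change above 0. The median was 0.66 for the cytosolic genes, 0.48 for the mitochondrial genes and -0.04 over all genes. For 26 of the 33 genes, including all 18 cytosolic genes, both IR+24h libraries lay above both -IR libraries, where 23.6% of all genes did so.

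LeuRS-m, which charges mitochondrial leucine tRNA, had the largest fold change (chromosome 3L, 4825853 to 4829038, plus strand). It was at 4.98 and 4.59 CPM in POS -IR and at 20.9 and 25.5 CPM in POS IR+24h, with a log2 fold change of 2.28 (SE 0.28, edgeR adjusted p = 0.0010). The 2 groups were far apart. ValRS, the cytosolic enzyme for valine (chromosome 2R, 13198850 to 13202709, plus strand), was at 52.0 and 60.9 CPM in POS -IR and at 120.3 and 150.0 CPM in POS IR+24h. Its log2 fold change was 1.26 (SE 0.17, edgeR adjusted p = 0.00153), and the lower irradiated library was still well above both -IR libraries.

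MetRS, which charges both the initiator and the elongator tRNA for methionine (chromosome 2R, 18846858 to 18850599, minus strand), was at 65.7 and 57.0 CPM in POS -IR and at 119 and 129 CPM in POS IR+24h. This was a log2 fold change of 1.01 (SE 0.17, edgeR adjusted p = 0.00509). LeuRS, the cytosolic partner of LeuRS-m (chromosome 2L, 3510328 to 3514656, minus strand), went from 93.8 and 117 CPM to 176 and 193 CPM (log2 fold change 0.81, SE 0.16, edgeR adjusted p = 0.0130). For both genes the 2 groups did not overlap. CysRS, the enzyme for cysteine (chromosome 2R, 16143147 to 16145906, plus strand), went from 58.9 and 60.7 CPM to 94.5 and 115 CPM (log2 fold change 0.81, SE 0.18, edgeR adjusted p = 0.0231).

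GlnRS, the enzyme for glutamine (chromosome 3R, 25263267 to 25265721, minus strand), went from 94.2 and 98.7 CPM in POS -IR to 155 and 158 CPM in POS IR+24h, with replicates within a few CPM in both groups (log2 fold change 0.70, edgeR adjusted p = 0.0231). TyrRS, the enzyme for tyrosine (chromosome 3L, 16417349 to 16419302, minus strand), was at 98.8 and 106 CPM and then at 148 and 182 CPM (log2 fold change 0.69, edgeR adjusted p = 0.0230). Its neighbour on the same strand, 171 bp away, is GluRS-m, which was at 2.78 and 1.36 CPM and then at 2.59 and 4.81 CPM, with overlapping groups (log2 fold change 0.85, SE 0.55). HisRS, lower in POS than in NEG without irradiation, rose from 71.7 and 68.7 CPM to 106 and 120.1 CPM (log2 fold change 0.69, edgeR adjusted p = 0.0291).

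AlaRS, the enzyme for alanine and the most abundant of the 10 per kb (chromosome 2L, 8378262 to 8381764, minus strand), rose from 362 and 352 CPM to 546 and 587 CPM. Its log2 fold change was 0.66 (SE 0.14, edgeR adjusted p = 0.0177). SerRS, which also charges the selenocysteine tRNA in animals that use it (chromosome 2L, 3035493 to 3037403, minus strand), rose from 144 and 149.5 CPM to 212 and 249 CPM (log2 fold change 0.65, edgeR adjusted p = 0.0343). It had the largest adjusted p of those that passed. Just outside the threshold were ArgRS, the enzyme for arginine, at a log2 fold change of 0.60 (edgeR adjusted p = 0.0526) and AspRS-m at 0.71 (edgeR adjusted p = 0.0532).

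**Figure D3:**
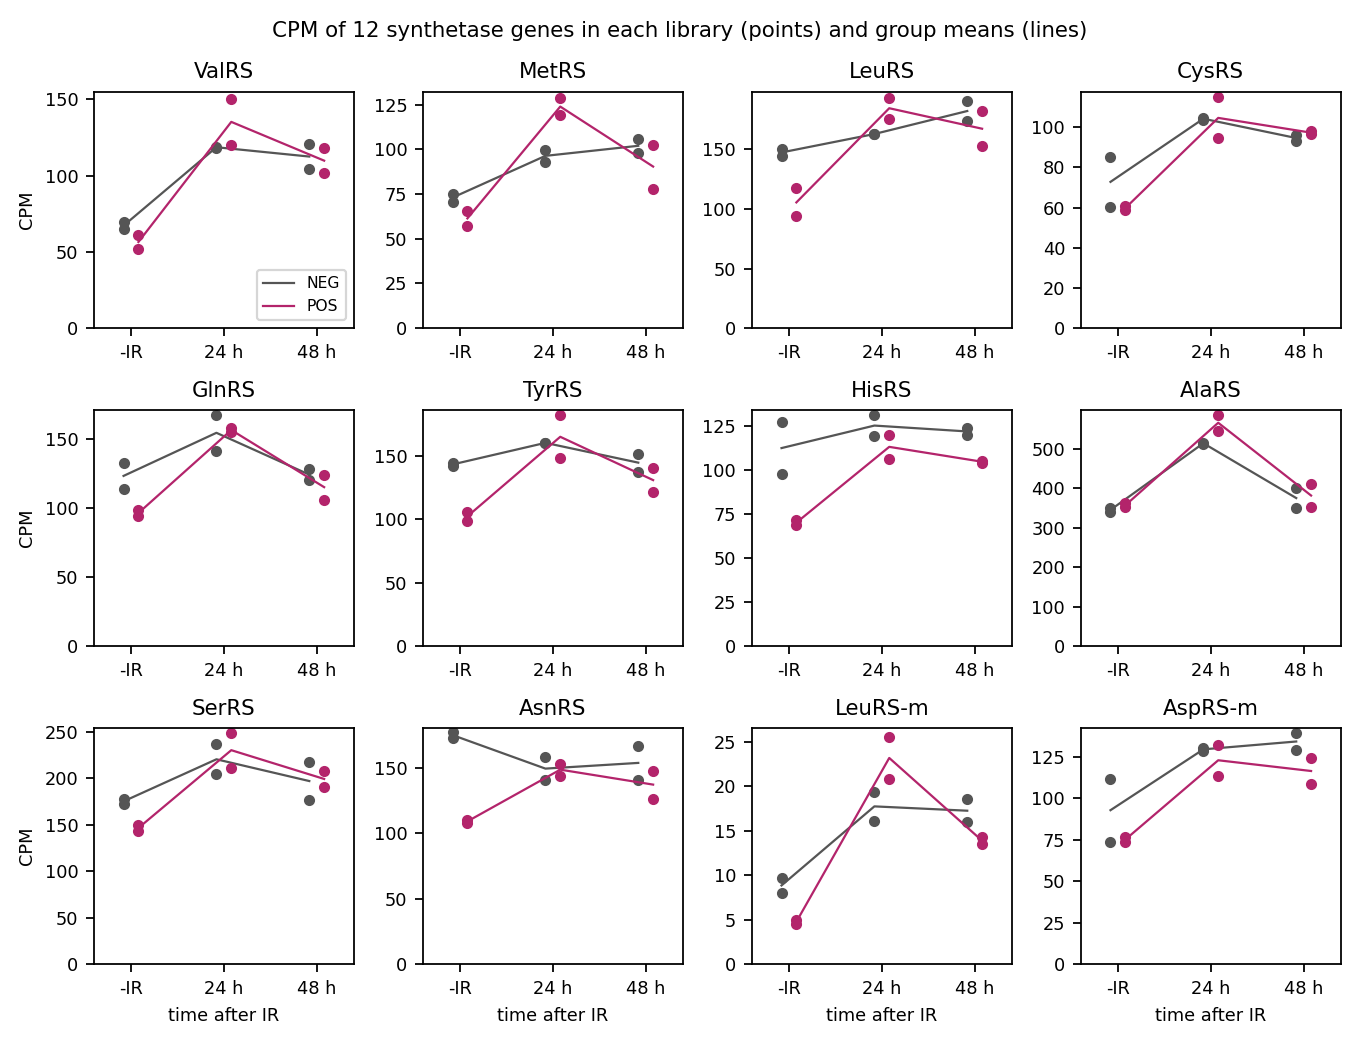
CPM of 12 synthetase genes in each library, as points, against time after irradiation, with lines through the means of 2 libraries; NEG in grey and POS in magenta, each vertical axis starting at 0. In POS, LeuRS-m was at 4.98 and 4.59 CPM in -IR and 20.9 and 25.5 CPM at 24 h, and for AsnRS the POS and NEG points are apart in -IR and overlap at 24 h.

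The enzymes of the set did not move by the same amount. Among the cytosolic genes the smallest fitted change in POS cells at 24 h was that of AspRS, from 353 and 323 CPM to 355 and 377 CPM (log2 fold change 0.12, SE 0.13), with the limit on strand given above. Of the 9 cytosolic class I genes 6 rose, with a median log2 fold change of 0.72, and of the 8 class II genes 3 rose, with a median of 0.48; GluProRS, which holds a domain of each class, was at 0.33 and did not pass. Of the 8 genes whose mammalian counterparts sit in the multisynthetase complex 3 rose, and of the 10 others 6 rose. The difference between these groups was not tested. The lowest mitochondrial genes were ValRS-m, at 8.41 and 4.34 CPM in POS -IR and 4.22 and 6.30 CPM in POS IR+24h (log2 fold change -0.27, SE 0.59), and SerRS-m at a log2 fold change of -0.10. Among the 12 amino acids with both forms, the mitochondrial gene had the higher fold change for 3.

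The count of the 33 genes that rose in POS at 24 h was 14 in DESeq2, where 6.85% of all genes with an adjusted p rose, and 13 in limma voom, where 4.94% did. The edgeR count leaned on particular libraries. Without POS IR+24h replicate 2 only ValRS and LeuRS-m passed, and the same pair passed when the fit held only the 4 libraries compared, where 1.26% of all genes rose. The count was 4 without POS IR+24h replicate 1 or without POS -IR replicate 2, 6 without POS -IR replicate 1, 5 without NEG IR+48h replicate 2, and 7 to 13 without each of the other 7. ValRS and LeuRS-m passed in every one of the 9 alternative fits and 12 fits with 1 library left out. The POS -IR libraries enter both this comparison and that of POS with NEG without irradiation, so the low -IR levels of HisRS and LeuRS are the same measurements in both. The summed muscle precursor markers went from 63.3 to 111 CPM in POS -IR to 145 to 152 CPM in POS IR+24h, and the summed hinge markers from 4613 to 6918 CPM to 3650 to 4443 CPM; their part in the result was not tested.

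At 48 h, ValRS and LeuRS-m were still higher in POS cells than without irradiation. In edgeR, 1.27% of all genes were higher in this comparison. ValRS was at 118 and 101 CPM (log2 fold change 0.96, SE 0.17, edgeR adjusted p = 0.0231), and LeuRS-m was at 14.3 and 13.5 CPM (log2 fold change 1.54, SE 0.28, edgeR adjusted p = 0.0234). Both genes were above their POS -IR libraries in 4 of 4 comparisons of single libraries. The log2 fold change was above 0 for 27 of the 33 genes, with a median of 0.30 against -0.05 over all genes, and for 21 genes the groups did not overlap, where 21.9% of all genes lay higher in this way. LeuRS at 0.67 (edgeR adjusted p = 0.0615) and CysRS at 0.70 (edgeR adjusted p = 0.0783) came nearest after them, and ArgRS-m was lowest at -0.30, at 6.08 and 7.14 CPM.

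The 48 h calls were less stable than those at 24 h. The count was 0 without POS -IR replicate 2, POS IR+48h replicate 1 or POS IR+48h replicate 2. It was 1 without POS -IR replicate 1 (LeuRS-m), and 1 without NEG IR+24h replicate 2, POS IR+24h replicate 1 or POS IR+24h replicate 2 (ValRS). It was 4 without either NEG -IR replicate. The summed muscle precursor markers were at 218 to 232 CPM in POS IR+48h, against 63.3 to 111 CPM in POS -IR, and 2 of the 5 passed as higher (median log2 fold change 2.53). The summed hinge markers were at 4475 to 4481 CPM, and 0 of the 4 passed. Their part in the 48 h values was not tested.

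Most fitted values in POS were lower at 48 h than at 24 h, but no gene in the table passed the test. Of the 33 genes 30 had a log2 fold change below 0, including all 18 cytosolic genes, with a median of -0.16 against 0.00 over all genes, and for 18 both IR+48h libraries lay below both IR+24h libraries, where 23.3% of all genes did so. In edgeR 0% of genes were called, and 5 of the 33 had an unadjusted p under 0.05, where 4.93% of all genes did. AlaRS had the lowest adjusted p, at 412 and 352 CPM at 48 h against 546 and 587 CPM at 24 h (log2 fold change -0.57, SE 0.14, edgeR adjusted p = 0.345). Its values at 48 h overlapped those of POS -IR, 362 and 352 CPM. DESeq2 called 1 of the 33, AlaRS, as lower, where 0.73% of all genes with an adjusted p were lower, and so did edgeR with the 4 libraries alone, where 3.31% were. Without POS IR+24h replicate 1 the median of the 33 genes was -0.28.

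In NEG cells 24 h after irradiation ValRS rose and no other synthetase gene passed. In edgeR, 1.89% of all genes rose in this comparison. ValRS was at 64.9 and 69.4 CPM in NEG -IR and at 118 and 119 CPM in NEG IR+24h, a log2 fold change of 0.82 (SE 0.17, edgeR adjusted p = 0.0285), with the 2 groups far apart and close replicates. LeuRS-m had the highest fitted value, 1.01 (SE 0.28, edgeR adjusted p = 0.103), going from 9.68 and 8.06 CPM to 16.1 and 19.4 CPM. AlaRS, at 340.0 and 351 CPM and then 516 and 514 CPM, came next to passing (log2 fold change 0.57, edgeR adjusted p = 0.0614). TrpRS, the enzyme for tryptophan, was at 26.1 and 41.5 CPM and then 58.7 and 65.1 CPM (log2 fold change 0.85, edgeR adjusted p = 0.0817). AsnRS-m had the lowest fitted value, -0.45 (SE 0.54), at 13.6 and 7.70 CPM and then 6.65 and 8.64 CPM, with overlapping groups.

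Over the 33 genes the median change in NEG at 24 h was 0.22 against -0.01 over all genes. The log2 fold change was above 0 for 26 genes, and for 20 both IR+24h libraries lay above both -IR libraries, where 21.6% of all genes did so. AsnRS was the one gene whose IR+24h libraries both lay below, at 158 and 140.3 CPM against 173 and 177 CPM, where 17.7% of all genes lay lower in this way. The call of ValRS was lost without NEG -IR replicate 1, NEG -IR replicate 2, NEG IR+24h replicate 1, NEG IR+24h replicate 2, NEG IR+48h replicate 2, POS IR+48h replicate 1 or POS IR+48h replicate 2. The count was 2 without NEG -IR replicate 2 (TrpRS and AspRS-m), 2 without POS -IR replicate 1 (AlaRS and ValRS) and 0 in limma voom. Of the 5 muscle precursor markers 1 passed as lower in NEG at 24 h, with a median log2 fold change of -0.64, and their sum was 475 to 763 CPM against 553 to 1535 CPM. The summed hemocyte markers were at 41.4 to 85.9 CPM in NEG -IR, 59.4 to 185 CPM in NEG IR+24h and 222 to 226 CPM in NEG IR+48h, with 0 of 4 past the test at either time. Their part in the NEG values was not tested.

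At 48 h in NEG, edgeR called 0 of the 33 genes, with 6 at an unadjusted p under 0.05, where 0.113% and 10.5% of all genes were. DESeq2 called 2 as higher (ValRS and LeuRS-m), where 0.772% of all genes were. Limma voom called 0, where 0.00942% of all genes were higher and 0% lower. The median change was 0.12, and ValRS, at 120.4 and 104 CPM, had a log2 fold change of 0.74 (SE 0.17, edgeR adjusted p = 0.178). The extremes were GluRS-m, at 4.22 and 5.55 CPM with a log2 fold change of 1.09 (SE 0.57), and TrpRS-m, at 8.43 and 8.93 CPM with -0.84 (SE 0.37). Between 24 and 48 h in NEG the median was -0.13. There edgeR called 0 of the 33, with 2 at an unadjusted p under 0.05, where 0% and 6.08% of all genes were. DESeq2 called 0 of the 33, where 0.0398% of genes with an adjusted p were higher and 0.93% lower. Limma voom also called 0 of the 33, where 0% of all genes were higher and 0.0848% lower. AlaRS again had the lowest adjusted p, at 402 and 349 CPM after 516 and 514 CPM (log2 fold change -0.45, edgeR adjusted p = 0.468).

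**Figure D4:**
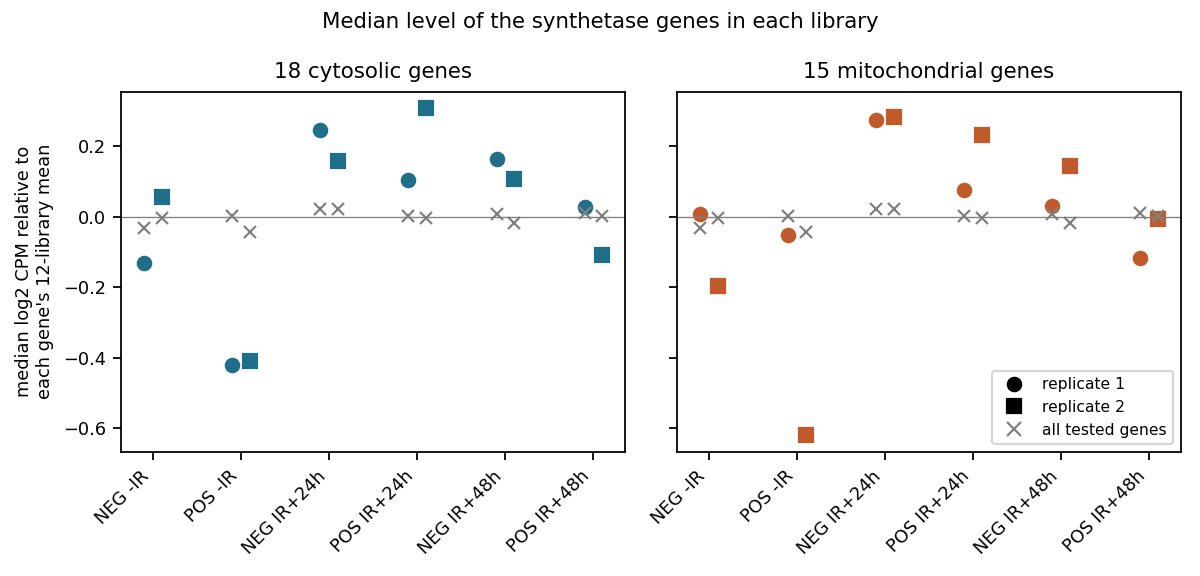
Median log2 CPM of the 18 cytosolic genes (left) and the 15 mitochondrial genes (right) in each library, relative to each gene's mean over 12 libraries; circles are replicate 1, squares replicate 2, and crosses the median of all tested genes. The cytosolic genes were lowest in the POS -IR libraries, at -0.42 and -0.41, and were between 0.10 and 0.31 in the 4 IR+24h libraries.

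Whether the change after irradiation differed between POS and NEG was tested as a difference of changes. At 24 h it was above 0, that is, the POS change was the higher one, for 25 of the 33 genes, with a median of 0.27 against -0.01 over all genes, and for 17 of the 18 cytosolic genes. In edgeR 0 of the 33 genes and 0% of all genes passed. At an unadjusted p under 0.05 there were 6 of the 33, where 3.32% of all genes were. DESeq2 called 0 of the 32 that had an adjusted p, where 0.15% of genes with one passed as higher and 0.0546% as lower. Limma voom called 0 of the 33, where 0% of all genes passed. The highest fitted differences were 1.32 (SE 0.77) for AsnRS-m and 1.26 (SE 0.39) for LeuRS-m, and the lowest was -0.65 for ArgRS-m. At 48 h the median was 0.22, or 0.091 without NEG -IR replicate 2, 0 of the 33 passed where 0.0188% of all genes did, and 1 gene had an unadjusted p under 0.05, where 3.3% of all genes did. DESeq2 and limma voom called 0 of the 33 there too. DESeq2 called 0.225% of genes with an adjusted p as higher and 0% as lower, and limma voom called 0% of all genes. These tests and those of POS with NEG at -IR rest on the same 4 unirradiated libraries.

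After irradiation, none of the 33 genes passed the test between POS and NEG. At IR+24h edgeR called 0 of 33, with 0 at an unadjusted p under 0.05, where 0.509% and 7.62% of all genes were. The median log2 fold change was 0.00 against -0.02 over all genes, with 17 genes below 0. Both POS libraries lay below both NEG libraries for 9 genes and above for 6, where 24.7% and 21.6% of all genes did so. MetRS had the lowest adjusted p, at 119 and 129 CPM in POS against 92.8 and 99.9 CPM in NEG (log2 fold change 0.36, SE 0.17, edgeR adjusted p = 0.654), and LeuRS-m the highest fitted value at 0.39 (SE 0.26). PheRS-m was lowest at -0.61, with 6.59 and 6.37 CPM in POS and 8.89 and 10.9 CPM in NEG. At IR+48h edgeR again called 0 of 33, with 0 at an unadjusted p under 0.05, where 0.33% and 6.25% of all genes were. The median was -0.14 against 0.01 over all genes, with 25 of the 33 genes and 14 of the 18 cytosolic genes below 0. Both POS libraries lay below both NEG libraries for 13 genes and above for 3, where 21% and 21.7% of all genes did so. The extremes there were PheRS-m at -0.68, with 6.51 and 4.65 CPM in POS and 6.81 and 11.1 CPM in NEG, and TyrRS-m at 0.57, with 15.3 and 11.1 CPM in POS and 11.6 and 6.15 CPM in NEG. DESeq2 and limma voom called 0 of the 33 at both times. Of genes with an adjusted p, DESeq2 called 0.837% higher and 0.97% lower at IR+24h, and 0.424% and 0.801% at IR+48h. Of all genes, limma voom called 0.273% higher and 0.122% lower at IR+24h, and 0.235% and 0.245% at IR+48h. A p that misses the threshold does not show that the populations had the same level.

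Genes that act with the synthetases were read from fixed lists. The alpha subunit of the cytosolic phenylalanine enzyme, alpha-PheRS, rose in POS at 24 h from 59.9 and 60.5 CPM to 87.2 and 103 CPM (log2 fold change 0.66, edgeR adjusted p = 0.0316). Its partner beta-PheRS, with which it forms 1 enzyme, was at 115 and 129 CPM and then at 114 and 118 CPM (log2 fold change -0.07, SE 0.16). The other 3 tested genes of that list, Slimp, GatA and GatB, did not pass. AIMP1, AIMP2 and AIMP3, named after the scaffold proteins of the mammalian multisynthetase complex, gave 0 of 3 past the test in any of the 11 comparisons. Over all genes, at most 5.33% passed in any 1 of them. The fitted values of the 3 in POS at 24 h were 0.89, 0.29 and 0.50.

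The list of tRNA modification and maturation had 10 tested genes, of which 5 rose in POS at 24 h and 0 fell. Over all genes, 4.14% rose and 1.19% fell there. La, which binds the 3 prime ends of new tRNA transcripts, went from 190.3 and 185 CPM to 428 and 480 CPM (log2 fold change 1.27, edgeR adjusted p = 9.96e-04). RtcB, the ligase that joins the spliced parts of tRNAs, went from 50.6 and 36.0 CPM to 106 and 129 CPM (1.44, edgeR adjusted p = 0.00146), and Archease, its cofactor in human cells, from 9.39 and 3.16 CPM to 18.1 and 27.0 CPM (1.85, edgeR adjusted p = 0.0414). Nsun2, a tRNA methyltransferase, rose by a log2 fold change of 1.07 (edgeR adjusted p = 0.0417). In NEG at 24 h 2 of the 10 rose, where 1.89% of all genes did. These were La by 0.70 (edgeR adjusted p = 0.0374) and RtcB by 1.06 (edgeR adjusted p = 0.0137). In POS at 48 h 1 of 10 rose, La by 0.75 (edgeR adjusted p = 0.0353), where 1.27% of all genes did.

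Of 4 genes of stress kinases, ATF4 and 4E-BP, which act on translation, 2 rose in NEG at 24 h, where 1.89% of all genes did. Gcn2, the kinase that senses uncharged tRNA, rose in NEG at 24 h from 45.3 and 43.6 CPM to 78.2 and 94.2 CPM (log2 fold change 0.96, edgeR adjusted p = 0.00947). Thor, the 4E-BP that restrains translation and a target of ATF4 in flies, rose there from 7.99 and 10.1 CPM to 24.7 and 24.6 CPM (log2 fold change 1.43, edgeR adjusted p = 0.0433). In POS at 24 h 0 of the 4 genes passed, where 5.33% of all genes did. Gcn2 was at 0.51 there and Thor at 1.07, and the difference of the changes did not pass for either. PEK, the fly PERK, which senses unfolded protein in the endoplasmic reticulum, and crc, the fly ATF4, did not pass in either population.

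Myc, a growth regulator that raises many genes of translation in flies, was lower in POS -IR, at 301 and 367 CPM against 519 and 568 CPM in NEG -IR (log2 fold change -0.70, edgeR adjusted p = 0.0458). It did not pass after irradiation in POS (log2 fold change 0.09 at 24 h), while Mnt, which opposes Myc, fell in POS at 24 h from 101 and 119 CPM to 69.0 and 70.5 CPM (log2 fold change -0.66, edgeR adjusted p = 0.0410). The study reports a fall of Mnt after irradiation in both populations. In edgeR neither Myc nor Mnt passed in NEG at 24 h, and the difference of the changes did not pass for either. Of 4 elongation factor 1 genes, eEF1gamma was lower in POS -IR, at 2146 and 2077 CPM against 3176 and 3109 CPM (log2 fold change -0.57, edgeR adjusted p = 0.0407). Over all genes, 1.76% were lower there. In either population at 24 h 0 of the 4 passed. Of 6 genes of amino acid transport and supply 0 passed in POS or NEG at 24 h, with median log2 fold changes of 0.02 and -0.01. Over all genes, 5.33% passed in POS at 24 h and 2.16% in NEG.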

How the data were processed

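Per the labels and the study's methods, the authors trimmed reads with BBDuk, aligned and counted them with STAR 2.6.0a on Ensembl's BDGP6.22 annotation, and deposited raw counts per gene without normalization; whether counting used strand is not given in the sources used here. Library totals of 4211088 to 19940040 set the precision, which covers counting error and the spread between 2 libraries a group. Of the columns, 1 that matches no sample was not used.

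The test was edgeR 4.0.16 (R 4.3.3): TMM factors, filterByExpr, quasi-likelihood F tests on 6 group means over all 12 libraries, 2-sided, with Benjamini-Hochberg adjustment over 10617 genes and a threshold of 0.05. Non-overlap means that both libraries of one group lay beyond both of the other. CPM per kb used the union of exons in BDGP6.54, which gave coordinates on Release 6 and matched all 33 genes by symbol. No sequences are shown. On simulated counts for POS against NEG -IR, 14% of 200 genes changed 2-fold (10287 genes) and 60% of 200 changed 4-fold (10244 genes) were recovered, and 6.67% and 1.64% of calls were unchanged genes.

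Around the group means, a POS library and the NEG library of its number deviated together, with correlations of 0.471 (-IR), 0.110 (IR+24h) and 0.162 (IR+48h) over 10617 genes. By a limit of 0.1 in every pair, the numbers were taken to pair POS with NEG within a time point. With 2 libraries a group this limit cannot establish pairing. Between -IR and IR+24h, where no pairing was assumed, the correlations were -0.216 in POS and -0.135 in NEG, larger in size than 0.110. The pairing rests on the data, since the labels name no shared sort.

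Alternatives were DESeq2 1.42.0, limma voom (limma 3.58.1, the tool named by the study), other scalings and filters, a fit of the compared groups alone, replicate blocks, other lengths, and leaving out each library. The comparisons of IR+48h with IR+24h and a crossed pairing were added after seeing the data. The members and gene lists were chosen with earlier results of these data known. Values by library are given for every member past the threshold and for the highest and lowest fold change in each planned comparison of 2 groups; other pathway genes are named where they passed, plus partners of those named, except 1 that is not reported here.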

Additional observations from a re-analysis of the deposited data

Results flagged for a closer look

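AsnRS, the cytosolic enzyme for asparagine, had fitted changes of opposite sign after irradiation in POS and NEG, none of which passed the test. In POS both IR+24h libraries (144 and 153 CPM) and both IR+48h libraries (148 and 126 CPM) lay above both -IR libraries (110.4 and 108 CPM), with log2 fold changes of 0.45 (SE 0.15) and 0.33 (SE 0.15). In NEG both IR+24h libraries (158 and 140.3 CPM) and both IR+48h libraries (167 and 140.3 CPM) lay below both -IR libraries (173 and 177 CPM), with log2 fold changes of -0.23 (SE 0.15) and -0.19 (SE 0.15). The difference of the changes was 0.67 at 24 h (SE 0.21) and 0.52 at 48 h (SE 0.21). In edgeR the unadjusted p was 0.00837 and 0.0321, and neither passed after adjustment over all genes. Both differences use the same 4 unirradiated libraries, in which AsnRS was also lower in POS than in NEG, so they are not independent of each other or of that comparison.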

How the results depend on the processing

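With 2 libraries a group, counts of genes past the threshold moved more than their medians, and the fold change of every gene that passed kept its direction in each fit listed here. For POS against NEG -IR the count of 2 became 3 in DESeq2, all lower in POS. Of genes with an adjusted p there, 4.36% were lower and 2.95% higher. The count became 0 with a 1 CPM filter, library size alone, no filter or the compared groups alone. It became 1 with DESeq2 size factors in edgeR and 1 with a replicate block over all groups. It became 8 with the replicate block within time point, which changed no other count of the 33. In POS at 24 h the count of 10 became 2 with the compared groups alone. In POS at 48 h the count of 2 became 5 in DESeq2, where 4.12% of genes with an adjusted p were higher. It became 4 with library size alone, 4 with no filter and 0 with the compared groups alone, where 0.0308% of genes were higher. In NEG at 24 h the count of 1 became 4 in DESeq2, where 3.5% of genes with an adjusted p were higher. It became 0 in limma voom, where 1.54% of all genes were higher. It became 2 with library size alone, 2 with no filter and 0 with the compared groups alone, where 0.439% of genes were higher. In NEG at 48 h the count of 0 became 2 in DESeq2 and 1 with no filter. From 24 to 48 h in POS it became 1 in DESeq2 and 1 with the compared groups alone. The cause was not tested. Where no share of all genes is given, a count does not show whether the 33 genes moved more than other genes. AsnRS and HisRS kept their direction in POS against NEG -IR in all 10 alternative fits, with adjusted p from 0.00345 to 0.750 and from 0.00769 to 0.791. Counts as low as 12 limit the mitochondrial genes most.

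Numbers were not taken to pair irradiated with -IR libraries (correlations of -0.216 to -0.007 over the POS and NEG series), and the replicate block left those counts at 10, 2, 1 and 0. A crossed replicate block gave 2 in NEG at 24 h and a median of -0.079 for NEG from 24 to 48 h.

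Leaving out 1 library gave counts of 0 to 3 for POS against NEG -IR, 2 to 13 for POS at 24 h, 0 to 4 for POS at 48 h and 0 to 2 for NEG at 24 h. Median log2 fold changes ran from -0.12 to 0.077 for POS against NEG at 24 h and from -0.22 to -0.079 at 48 h. They ran from 0.42 to 0.67 for POS at 24 h, 0.22 to 0.47 for POS at 48 h, 0.17 to 0.32 for NEG at 24 h, 0.095 to 0.24 for NEG at 48 h (0.20 with library size alone), -0.28 to -0.11 for POS from 24 to 48 h and -0.13 to -0.025 for NEG from 24 to 48 h. The median difference of changes ran from 0.19 to 0.34 at 24 h and from 0.091 to 0.26 at 48 h. Where a group was left with 1 library, its spread was taken from the other groups.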

Other observations

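Markers of other cells were also measured in the unirradiated groups. The 4 pouch markers summed to 872 to 1007 CPM in NEG -IR against 369.9 to 590 CPM in POS -IR, with 2 lower in POS by edgeR. The 2 tracheal markers summed to 96.98 to 127 against 24.4 to 57.6 CPM, with 0 past the test. The 4 notum markers summed to 79.1 to 162 against 161 to 163 CPM, with overlapping ranges, while their median log2 fold change was -1.43, with 1 lower in POS and 0 higher. The 3 neuronal markers summed to 28.6 to 72.9 against 66.8 to 94.7 CPM, also overlapping, and the 3 fat body markers to 4.84 to 37.3 against 4.34 to 4.41 CPM, and 0 of either list passed. Their part in the levels of the synthetase genes was not tested.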
